A study of Homo sapiens with 6 samples.

Results

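The cytosolic ribosomal protein genes encode the protein part of the ribosome, the particle that translates every mRNA of the cytosol. They were taken from the expression table of HGC-27 cells as protein-coding genes on an autosome or the X chromosome whose symbol has the form of a ribosomal protein (RPL, RPS, RPLP0 to RPLP2, RPSA). The rule found 82 of the 58735 genes, 50 of the large (60S) and 32 of the small (40S) subunit, and no measured value entered it. They lie on 21 chromosomes. Of these, 79 had a group mean of 1 FPKM or more in shNC, shACAT2 or both and were tested among 13832 genes. RPL3L, RPL10L and RPL39L did not pass.

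HGC-27 is an established line of undifferentiated human gastric carcinoma. The 3 shACAT2 libraries came from cells labelled as ACAT2 knockdown, which carried the vector pSIH-H1-Puro with a short hairpin RNA against ACAT2. The 3 shNC libraries came from cells labelled as wild type, with the same vector as control. The paper's methods name the empty vector as shNC, while its results also speak of control shRNA. Both groups were transfected for 24 h and then kept in puromycin for 7 days, so puromycin is shared by all 6 libraries. Which ACAT2 hairpin was used, and whether the cells were a clone or a pool, is not given in the labels, and n counts libraries that may not be separate cultures. The comparison asks what loss of ACAT2, an acetyl-CoA acetyltransferase, does to the mRNA of these cells.

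In ribosome assembly, each protein is needed in about equal number, and vertebrate ribosomal protein mRNAs share a 5' terminal oligopyrimidine (TOP) tract, which starts at the cap with a C and goes on with pyrimidines. Through this tract their translation is held back by LARP1 when mTORC1 is inactive, so the amount of mRNA measured by RNA-seq and the amount of protein made can differ. Many of these mRNAs are among the most abundant of a growing cell.

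The start of the mRNA is shown for 10 genes whose values are given later, because it is the feature by which these genes are known. Each line gives 15 bases on either side of the RefSeq start site (GRCh38.p14), 5' to 3' on the gene's strand, and capitals mark the run of pyrimidines from a C at the first transcribed base, where it is at least 5 bases long.
RPL7A, chr9:133348203-133348232, plus strand: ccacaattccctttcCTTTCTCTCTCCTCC
RPL12, chr9:127451392-127451421, minus strand: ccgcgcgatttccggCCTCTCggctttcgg
RPL21, chr13:27251543-27251572, plus strand: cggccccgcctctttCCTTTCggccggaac
RPS12, chr6:132814554-132814583, plus strand: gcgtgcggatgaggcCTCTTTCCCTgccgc
RPS6, chr9:19380222-19380251, minus strand: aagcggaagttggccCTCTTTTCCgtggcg
RPLP0, chr12:120201097-120201126, minus strand: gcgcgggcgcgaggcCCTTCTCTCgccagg
RPL26, chr17:8383179-8383208, minus strand: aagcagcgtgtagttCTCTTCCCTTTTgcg
RPL26L1, chr5:172958714-172958743, plus strand: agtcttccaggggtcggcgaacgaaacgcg
RPS27, chr1:153990747-153990776, plus strand: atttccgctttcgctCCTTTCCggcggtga
RPS27L, chr15:63157463-63157492, minus strand: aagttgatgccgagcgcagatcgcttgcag

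The listed start sites of RPL26L1 and RPS27L, copies of RPL26 and RPS27, had no such run, while their partners had one. Copies differed in this, since RPL22L1 had a run of 6 bases and its partner RPL22 one of 7, while RPL36AL and RPL10L had none. RPS4X also had none. Over the group, 46 of the 65 genes with a listed start site had the run at 1 or more of them (70.8%), against 1404 of 27305 genes of the genome (5.14%). Counted by start site, the shares were 57.5% and 4.07%. The search covered the transcribed strand only, at the first base, and other pyrimidine tracts further in were not counted. No run at a listed site says only that these letters are not there.

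Before the results, 2 libraries need naming. The library shACAT2-3 had a fragment on 36466 genes, against 25337 to 27196 in the others, and gave 7.03% of its fragments to mitochondrially encoded genes, against 5.13% and 5.11% in shACAT2-1 and shACAT2-2 and 6.33% to 6.56% in the shNC libraries. The library shACAT2-1 had the highest level of most ribosomal protein genes. Libraries held 14086416 to 16067486 fragments on genes. The targeted gene ACAT2 was at 14.2, 11.7 and 12.7 FPKM in the shNC libraries and at 6.19, 5.46 and 6.05 FPKM in the shACAT2 libraries, a log2 fold change of −1.01 (SE 0.103, limma adjusted p = 0.00594, n = 3 per group). Of the epithelial markers, KRT18, KRT19 and EPCAM were at 0 to 0.212 FPKM, KRT8 at 0.385 to 0.785. CDH1, under the filter, was at 0.12 to 0.222 FPKM in shNC and at 0.608 to 1.15 in shACAT2, without overlap. VIM was at 246 to 292 FPKM in shNC and at 340 to 461 in shACAT2, also without overlap (log2 fold change 0.62, limma adjusted p = 0.0634, and 0.0423 with total-fragment scaling). Of the fibroblast markers, COL1A1 rose from 57.9 to 67 FPKM in shNC to 108 to 139 in shACAT2 and DCN from 8.08 to 8.17 to 11.2 to 12.9 (limma adjusted p = 0.0136 and 0.0246), and PDGFRB was at 0.553 to 1.12. The leukocyte and endothelial markers PTPRC, CD3E, PECAM1 and CDH5 were at 0 to 0.187. The mesenchymal marker CDH2 and the erythroid HBB were at 0 to 0.0808, and HBA1 was at 1.87 to 7.67, highest in shNC-1. The part of these markers in the results for ribosomal protein genes was not tested.

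No ribosomal protein gene passed the test at adjusted p < 0.05, in either direction, on the authors' scale. By limma 0 of 79 were higher and 0 lower, where 5.10% of all genes tested were called (3.30% higher and 1.81% lower). The smallest adjusted p among the 79 genes was 0.163. At an unadjusted p below 0.05, 3 were higher, RPL7A, RPS27L and RPL21, against 12.8% of all genes tested, and 0 were lower, against 10.7%. By limma-voom on the recovered fragments 0 were called, where 8.42% of all genes were, and 6 were higher at an unadjusted p below 0.05, against 11.2%.

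The estimates nevertheless leaned to one side. The log2 fold change was above 0 for 69 of the 79 genes, against 52.3% of all genes tested, with a median of 0.14 against 0.016. It ran from −0.09 for RPL37 to 0.51 for RPL7A. The median was 0.14 over the 47 60S genes, 38 of them above 0, and 0.14 over the 32 40S genes, 31 of them above 0. Scaling to each library's total of fragments lowered the median of all genes tested by 0.043. On that scale 56 of the 79 genes were above 0, against 46.2% of all genes, the median was 0.09 against −0.027, and 13 genes changed sign. The count of calls was again 0, where 6.40% of all genes were called, and 5 genes were higher at an unadjusted p below 0.05, against 11.3%.

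The lean of the unpaired estimates depended on which library was left out. Without shACAT2-1 the median was −0.011, beside −0.010 for all genes tested, and 39 of 79 genes were above 0, against 48.6% of all genes. On the total-fragment scale the median without that library was −0.019, with 38 genes above 0. Leaving out shACAT2-1 kept shNC-1, the highest shNC library for most of these genes. Without shNC-1 the median went the other way, to 0.22, beside 0.025 for all genes tested, and 75 of 79 genes were above 0. Without shNC-2 or shNC-3 it was 0.11, beside 0.014 and 0.011 for all genes, with 59 and 61 genes above 0. Without shACAT2-3 the median was 0.26 and 77 genes were above 0, still with 0 calls where 3.95% of all genes were called, and 11 genes were higher at an unadjusted p below 0.05 against 15.5% of all genes.

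**Figure D1:**
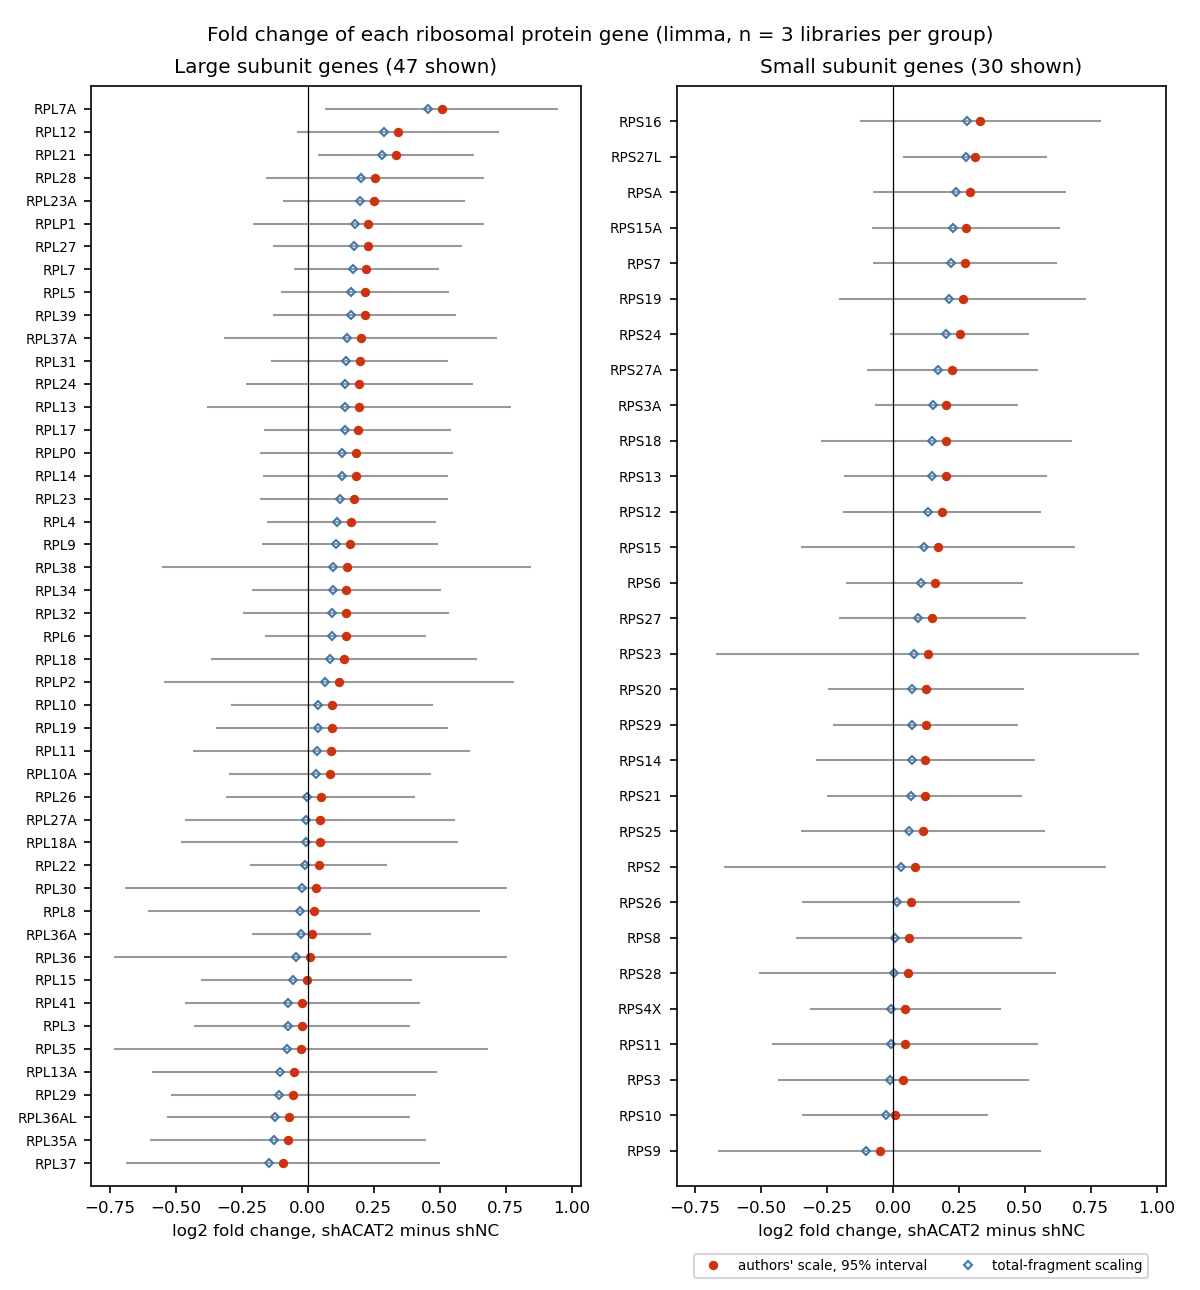
Log2 fold change, shACAT2 minus shNC, of 77 of the 79 genes tested, the 60S genes on the left and the 40S genes on the right. Filled points are on the authors' scale with their 95% interval from limma (n = 3 libraries per group) and open diamonds are on the total-fragment scale. The points run from −0.09 to 0.51 on the authors' scale, and the intervals of RPL7A, RPL21 and RPS27L lie above 0.

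The intervals show what size of change these libraries leave room for. The 95% interval of every one of the 79 genes lay within 1 of 0 on the log2 scale, as it did for 88.5% of all genes tested. It lay within 0.5 of 0 for 22 of the 79, against 40.0% of all genes. The SE ran from 0.0956 for RPL36A to 0.339 for RPS23, with a median of 0.165 against 0.141 over all genes. FPKM are shares of a library, so a change in the amount of ribosomal protein mRNA per cell, an opposite change in other mRNAs and a change in the mix of cells cannot be told apart.

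The share of all fragments on the 82 genes gives the same picture in 1 value per library. It was 6.70%, 5.98% and 5.98% in the shNC libraries and 7.89%, 6.42% and 5.72% in the shACAT2 libraries, with 95% Wilson intervals no wider than 0.0133 percentage points to either side, which cover counting error only. The group means were 6.22% ± 0.416 and 6.67% ± 1.11 (SD, n = 3). The shACAT2 libraries thus held both the highest and the lowest share, and the difference of the means was smaller than the SD of the shACAT2 group. Leaving the mitochondrially encoded genes out of the total gave 6.65% ± 0.452 and 7.08% ± 1.12.

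**Figure D2:**
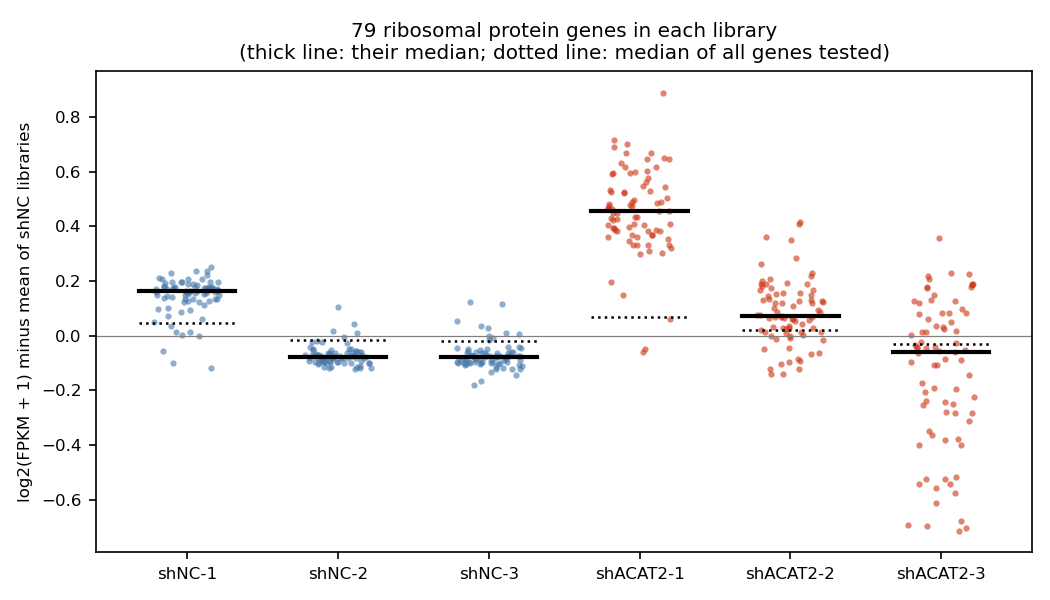
Log2(FPKM + 1) of each of the 79 genes tested in each library, minus its mean over the 3 shNC libraries. Each point is a gene, the thick line is the median of the 79 genes and the dotted line the median of all genes tested. The medians are 0.16, −0.077 and −0.079 in the shNC libraries and 0.46, 0.074 and −0.060 in the shACAT2 libraries.

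Within each group the genes moved together from library to library. Relative to the mean of the shNC libraries, their median log2 difference was 0.16 in shNC-1, with 75 of 79 genes above 0 against 59.7% of all genes tested, and −0.077 and −0.079 in shNC-2 and shNC-3. It was 0.46 in shACAT2-1 (77 genes above 0, against 56.5% of all), 0.074 in shACAT2-2 (62 genes, against 52.9%) and −0.060 in shACAT2-3 (30 genes, against 46.3%). The library shACAT2-1 held the highest value of the 6 libraries for 75 of the 79 genes, against 35.3% of all genes tested, and shNC-1 was above both other shNC libraries for 73, against 52.2%. The shNC libraries thus also differed from one another in a direction that most of these genes shared. For 45 of the 79 genes the correlation with the mean of the other members over the 6 libraries was at least 0.9, with a median r of 0.910. RPL36A (−0.54), RPS10 (−0.055) and RPL26 (0.14) had the lowest. The 6 libraries share their depth and scale, and these correlations are descriptions.

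The groups overlapped for 72 of the 79 genes. All 3 shACAT2 libraries lay above all 3 shNC libraries for 7 genes, RPL7A, RPL21, RPL7, RPL23A, RPS3A, RPS24 and RPS27L, against 16.2% of all genes tested, and below them for 0, against 14.5%. On the total-fragment scale the counts were 10 and 0, against 14.1% and 17.8%. Neither 7 nor 10 of 79 is a larger share than that of all genes. These 7 were singled out after their values were seen.

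With the replicate number as a block 0 of the 79 genes were called, where 12.5% of all genes were. Their smallest adjusted p was 0.0527, and 15 were higher at an unadjusted p below 0.05, against 19.1% of all genes. With the block and total-fragment scaling 1 gene was higher, RPL7A (limma adjusted p = 0.0426), where 13.5% of all genes were called. Within the pairs, the median difference was 0.31 for number 1, with 77 of 79 genes above 0 against 55.9% of all genes tested. It was 0.15 for number 2, which does not hold shACAT2-1, with 70 genes above 0 against 53.8%, and 0.008 for number 3, with 42 genes against 47.2%. The medians of all genes in these pairs were 0.051, 0.028 and −0.022. In all 3 pairs 37 genes were higher, against 30.1% of all genes, and 0 lower, against 27.1%. On the total-fragment scale the members' medians in the pairs were 0.22, 0.094 and −0.0025, with 76, 66 and 39 genes above 0. The pairing by number is not sharp, as given below, so the values within pairs are descriptions.

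RPL7A, a protein of the 60S subunit, had the largest estimate. It was at 487, 414 and 417 FPKM in the shNC libraries and at 811, 585 and 510 FPKM in the shACAT2 libraries. All shACAT2 values lay above all shNC values, with shACAT2-1 far above the rest. The means were 439 ± 41.3 and 635 ± 157 (SD, n = 3), a log2 fold change of 0.51 (95% interval 0.07 to 0.95, limma adjusted p = 0.163). A two-sided exact permutation test gave p = 0.1, the smallest that 3 against 3 libraries allow. RPL7A, at chr9:133348214-133351426 on the plus strand (hg38), has 37 pseudogenes in the table, which took 2.17% of the fragments of gene and pseudogenes together, and SNORD24, a small nucleolar RNA gene, lies on its exons.

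RPL12, a protein of the stalk base, was at 493, 427 and 432 FPKM in shNC and at 704, 547 and 481 FPKM in shACAT2. The value of shACAT2-3 fell below that of shNC-1, so the groups overlapped. Its log2 fold change was 0.34 (SE 0.163, limma adjusted p = 0.26, exact permutation p = 0.2). RPL21, another 60S protein, was at 213, 184 and 186 FPKM in shNC and at 268, 220 and 248 FPKM in shACAT2, without overlap. Its log2 fold change was 0.33 (SE 0.125, limma adjusted p = 0.168, exact permutation p = 0.1). RPL21 had the highest value of shACAT2-3 relative to shNC of all 79 genes, at 0.36.

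The P stalk recruits the elongation factors to the ribosome and is built of RPLP0, RPLP1 and RPLP2. RPLP0 was at 622, 515 and 504 FPKM in shNC and at 734, 542 and 595 in shACAT2. RPLP1 was at 479, 404 and 402 FPKM in shNC and at 648, 467 and 414 in shACAT2. RPLP2 was at 325, 285 and 286 FPKM in shNC and at 466, 350 and 207 in shACAT2. Their log2 fold changes were 0.18, 0.23 and 0.12 with overlapping groups, and RPLP2 held both its highest and its lowest value among the shACAT2 libraries.

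RPL5 and RPL11 form, with the 5S rRNA, the particle that binds MDM2 when ribosome assembly is disturbed. RPL5 was at 349, 313 and 325 FPKM in shNC and at 449, 357 and 348 FPKM in shACAT2, a log2 fold change of 0.22 (SE 0.134, limma adjusted p = 0.378). RPL11 was at 223, 194 and 199 FPKM in shNC and at 291, 227 and 157 FPKM in shACAT2, a log2 fold change of 0.09 (SE 0.222, limma adjusted p = 0.847). The shACAT2-3 value of RPL11 was the lowest of the 6, and that of RPL5 lay within the shNC range.

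Of the 40S proteins with known roles, RPS6, the substrate of S6 kinase, was at 645, 543 and 553 FPKM in shNC and at 757, 602 and 591 FPKM in shACAT2, a log2 fold change of 0.16 (SE 0.142). RPSA, known also as the laminin receptor, was at 390, 326 and 329 FPKM in shNC and at 513, 378 and 395 FPKM in shACAT2, a log2 fold change of 0.29 (SE 0.154, limma adjusted p = 0.308). RPS19, mutated in Diamond-Blackfan anaemia, was at 190, 158 and 160 FPKM in shNC and at 268, 192 and 162 FPKM in shACAT2, with a log2 fold change of 0.27. RPS14, lost in the 5q- syndrome, was at 167, 134 and 138 FPKM in shNC and at 199, 148 and 135 FPKM in shACAT2, with a log2 fold change of 0.12. In all 4 the shACAT2-1 value was the highest of the 6 libraries and the groups overlapped.

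Levels within the group differed widely. The median over the 79 genes was 220 FPKM, against 5.47 over all genes tested, 60 genes were at 100 FPKM or more and 11 at 500 or more, and 42 of the 100 most abundant nuclear genes were ribosomal protein genes. RPS2 led with 1437 ± 154 FPKM in shNC and 1617 ± 671 in shACAT2 (SD, n = 3). Its values were 1615, 1337 and 1360 FPKM in shNC and 2279, 1635 and 937 in shACAT2, so that shACAT2-1 and shACAT2-3 lay on either side of all shNC libraries. RPL41 followed with 1208, 999 and 1007 FPKM in shNC and 1371, 968 and 876 in shACAT2, then RPS12 with 922, 791 and 803 FPKM in shNC and 1176, 855 and 857 in shACAT2. RPS2, RPL41 and RPS12 kept this order in all 6 libraries, whereas RPS18 and RPL19, next in level, changed places between libraries. The others of the 10 most abundant, RPS18, RPL19, RPL13A, RPS6, RPLP0, RPL8 and RPL7A, had log2 fold changes from −0.05 for RPL13A to 0.51 for RPL7A.

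Of the 79 genes, 5 were under 10 FPKM, among them RPS10, RPS27L, RPL36A and RPL17. RPS10 (mean 2.08 FPKM) shares 39.4% of its exonic bases with other genes, the most with the readthrough gene RPS10-NUDT3, and 39% of the fragments of gene and pseudogenes lay on its pseudogenes. RPL17 (mean 5.90 FPKM) shares 35.3%, the most with RPL17-C18orf32. RPL36A (mean 3.74 FPKM) overlaps RPL36A-HNRNPH2 on the same strand. RPL10, at 301 to 423 FPKM, shares 55.5%, the most with DNASE1L1 on the opposite strand. In all, 76 of the 82 genes have annotated pseudogenes, 1137 of them, with a median of 8.5 per gene, and at 8 genes the pseudogenes took at least 10% of the fragments of gene and pseudogenes together. How the authors counted reads that fit several places is not given in the sources used here, so levels of these genes are uncertain. Adding the pseudogene fragments changed no call.

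Several members have a second gene copy. RPL36AL was at 86.6 to 91.9 FPKM in shNC and at 99.1, 99.5 and 61.7 in shACAT2, far above RPL36A at 3.4 to 4.06. RPS27L, which p53 is known to induce, was at 1.86, 1.64 and 2.1 FPKM in shNC and at 2.76, 2.67 and 2.23 in shACAT2, without overlap, a log2 fold change of 0.31 (95% interval 0.04 to 0.58, limma adjusted p = 0.163). Its partner RPS27 was at 397 to 470 FPKM in shNC and at 408 to 554 in shACAT2. RPS4X, on the X chromosome, was at 404 to 489 FPKM in shNC and at 403 to 537 in shACAT2. The copies known from muscle or testis were near 0, with 10 to 24 fragments per library for RPL3L, 5 to 15 for RPL10L and, for RPL39L, 0 in 5 libraries and 6 in shACAT2-3, while their partners RPL3, RPL10 and RPL39 had mean levels of 331, 337 and 181 FPKM.

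Of the 6 ribosomal protein genes that the naming rule misses, 1 passed the test. RPL26L1, a copy of RPL26 on chromosome 5 (chr5:172958729-172969771, plus strand, hg38), was at 54.1, 50.6 and 48.9 FPKM in shNC and at 117, 88.6 and 95.8 FPKM in shACAT2. All shACAT2 values lay above all shNC values. It rose by 0.95 on the log2 scale (SE 0.132, limma adjusted p = 0.0139), and by 0.90 with total-fragment scaling (adjusted p = 0.00623). RPL26 was at 31.2, 23.8 and 23.7 FPKM in shNC and at 27.2, 23.5 and 30.6 in shACAT2, a log2 fold change of 0.05. RPL26 shares 14.3% of its exonic bases with AC135178.2 on the same strand. Its pseudogenes took 15.6% of the fragments of gene and pseudogenes together, so the level of RPL26 is uncertain. Of the 1117 words of 50 bases in RPL26L1, 0 occur in RPL26. The call was lost on leaving out any 1 shNC library (limma adjusted p = 0.0602 to 0.0994), with a log2 fold change of 0.84 to 1.04 over all 6 omissions.

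RPL22L1 was at 11.8, 11.3 and 9.82 FPKM in shNC and at 17.5, 13.3 and 18.1 in shACAT2, without overlap (log2 fold change 0.52, limma adjusted p = 0.085). Its partner RPL22 had a log2 fold change of 0.04. RPL7L1 (0.12), FAU (0.11), which encodes the 40S protein eS30 fused to a ubiquitin-like domain, and RACK1 (0.11), a scaffold on the 40S subunit, had overlapping groups and did not pass the test.

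**Figure D3:**
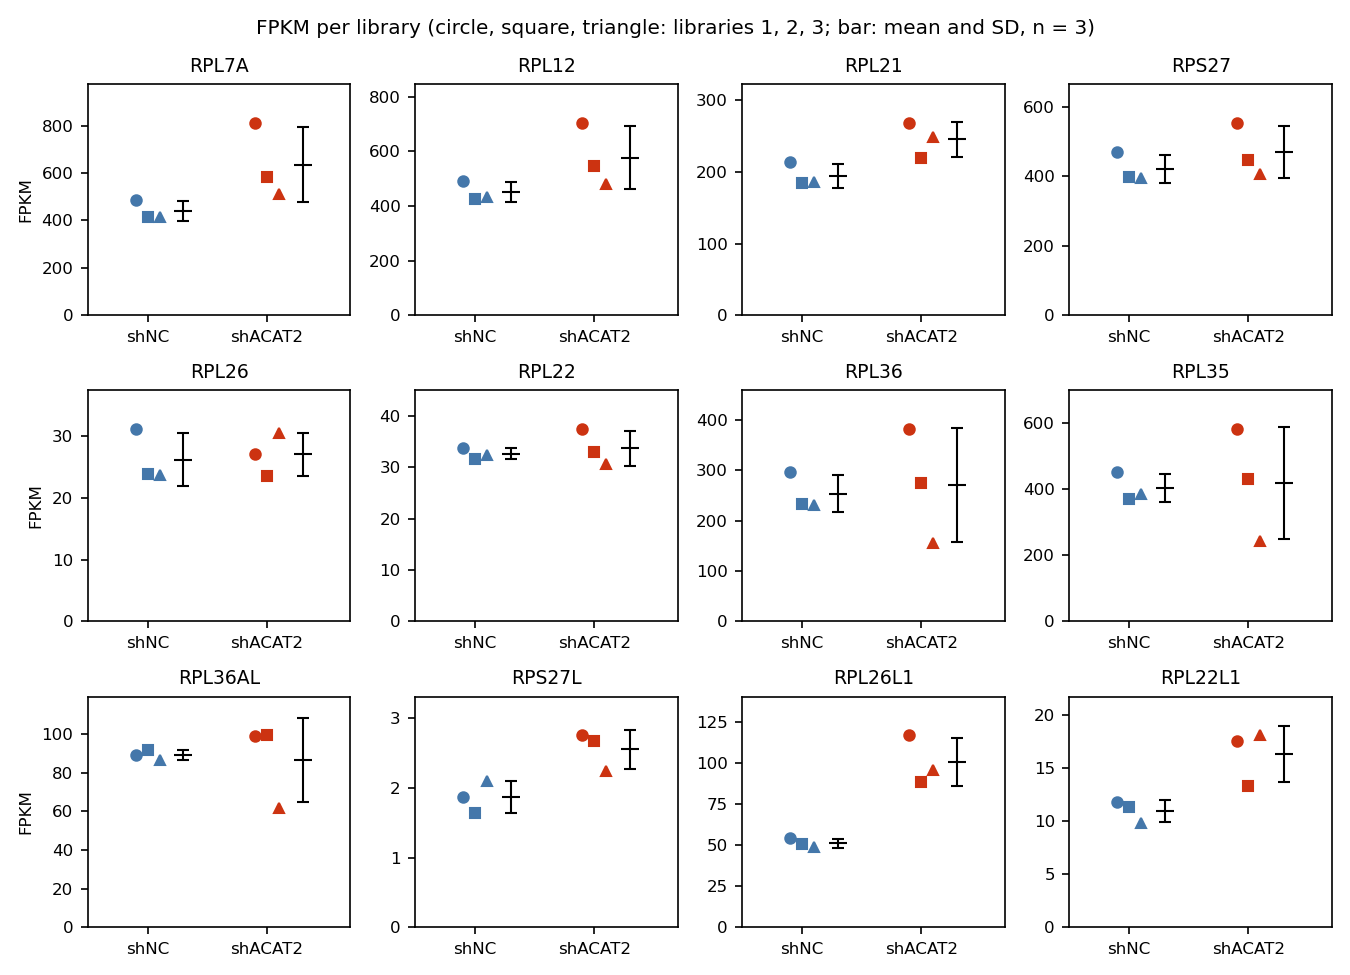
FPKM of 12 genes in each library, shNC in blue and shACAT2 in red, with circles, squares and triangles for libraries 1, 2 and 3 and bars for the mean and SD (n = 3). The triangle of shACAT2-3 is the lowest point for RPL22, RPL36, RPL35 and RPL36AL, and the groups do not overlap for RPL7A, RPL21, RPS27L, RPL26L1 and RPL22L1.

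The library shACAT2-3 split the group. It held the lowest value of the 6 libraries for 36 of the 79 genes, against 25.4% of all genes tested. It lay below all 3 shNC libraries for the same number of genes, against 39.1%. RPL35 (245 FPKM, against 371 to 452 in shNC), RPS23, RPL36, RPL30, RPL37 and RPS2 were lowest relative to the shNC mean, at −0.71 to −0.61 on the log2 scale. RPL21, RPS15A, RPL26, RPL7A and RPS24 were highest, at 0.36 to 0.21. For RPL36, shACAT2-1 was at 382 and shACAT2-3 at 155 FPKM, against 232 to 297 in shNC.

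The GC content of the transcripts moved with this split. Over the 79 genes, the rank correlation of GC content with the difference from the shNC mean was 0.44 in shACAT2-1, −0.10 in shACAT2-2 and −0.42 in shACAT2-3, and over 13823 genes 0.35, −0.14 and −0.41. Genes are not independent replicates. The members' median GC content was 49.8%, against 48.9% for all genes. In the GC-richest of 5 equal groups of genes, all genes had a median of 0.30 in shACAT2-1 and −0.26 in shACAT2-3, and the 7 members there 0.60 and −0.54. RPS23, RPL30 and RPL37, with a GC content of 45.1%, 46.8% and 44.2%, were nevertheless among the lowest of shACAT2-3. For gene length the rank correlations were −0.09, −0.016 and 0.17 over the members and −0.21, 0.0016 and 0.046 over all genes tested. In shACAT2-1 the medians of 5 equal groups of all genes, from short to long, were 0.038, 0.30, 0.15, 0.026 and −0.16, and those of the members in them 0.40, 0.47, 0.46, 0.46 and 0.38.

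With each library's trend on GC content taken out, an alternative chosen after seeing the data, 2 of the 79 genes were higher, among them RPL7A (limma adjusted p = 0.0368), against 9.54% of all genes. With the replicate block as well, 8 were higher, among them RPL7A, RPL21, RPS15A, RPL28, RPS24, RPL12 and RPS7, against 11.6%, and 0 lower. The adjusted medians by library were 0.089, −0.049 and −0.051 in shNC and 0.38, 0.069 and −0.058 in shACAT2, in the same order as before.

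Related genes were set beside the group by their counts and medians, read against the 3.30% of all genes called higher and the 1.81% called lower. Of 77 mitochondrial ribosomal protein genes tested, 1 rose, MRPS6 (5.39 to 6.19 FPKM in shNC, 7.6 to 10.4 in shACAT2, log2 fold change 0.57, limma adjusted p = 0.049), and the median was 0.071. Of 26 other mRNAs with a TOP tract, such as translation factors, 0 passed and the median was 0.096. This list includes FAU, a ribosomal protein gene outside the naming rule, so it is not free of ribosomal protein genes. Of 13 host genes of small nucleolar RNAs with a TOP tract 0 passed, with a median of −0.11. Of the 13 mitochondrially encoded protein genes 0 passed, with a median of −0.090.

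Of 66 ribosome biogenesis factors 1 rose and 1 fell. SBDS, which acts in the last steps of 60S maturation, was at 43.3 to 44.5 FPKM in shNC and at 69 to 71 FPKM in shACAT2 (log2 fold change 0.65, limma adjusted p = 0.0146). NOLC1, a nucleolar chaperone of small nucleolar particles, was at 220 to 226 FPKM in shNC and 128 to 139 FPKM in shACAT2 (log2 fold change −0.72, limma adjusted p = 0.0135). For both, no shACAT2 value overlapped a shNC value. The median of the list was 0.060. Of 30 genes of translation control 1 fell, RPTOR, the scaffold of mTORC1 (9.12 to 10 FPKM in shNC, 6.42 to 6.9 in shACAT2, log2 fold change −0.44, limma adjusted p = 0.0376), with a list median of −0.017.

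On the total-fragment scale, where 3.51% of all genes were called higher and 2.88% lower, 1 mitochondrial ribosomal protein gene and 1 other TOP mRNA were higher, 2 biogenesis factors higher and 1 lower, and 2 genes of translation control higher and 1 lower. With the replicate block, where 7.67% of all genes were higher and 4.81% lower, the counts were 5 mitochondrial ribosomal protein genes and 2 other TOP mRNAs higher, 5 biogenesis factors higher and 2 lower, and 4 genes of translation control higher and 3 lower. The call of MRPS6 was lost without shACAT2-1. The medians on the total-fragment scale of the mitochondrial ribosomal protein, other TOP, host gene, biogenesis and translation control lists were 0.019, 0.044, −0.16, 0.0081 and −0.067. The members' own median of 0.09 was above all of these, as a description. It was below the 0.11 of the 6 ribosomal protein genes outside the naming rule. Without shACAT2-1 the members' median was −0.011 on the authors' scale while that of the other TOP mRNAs was 0.041.

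**Figure D4:**
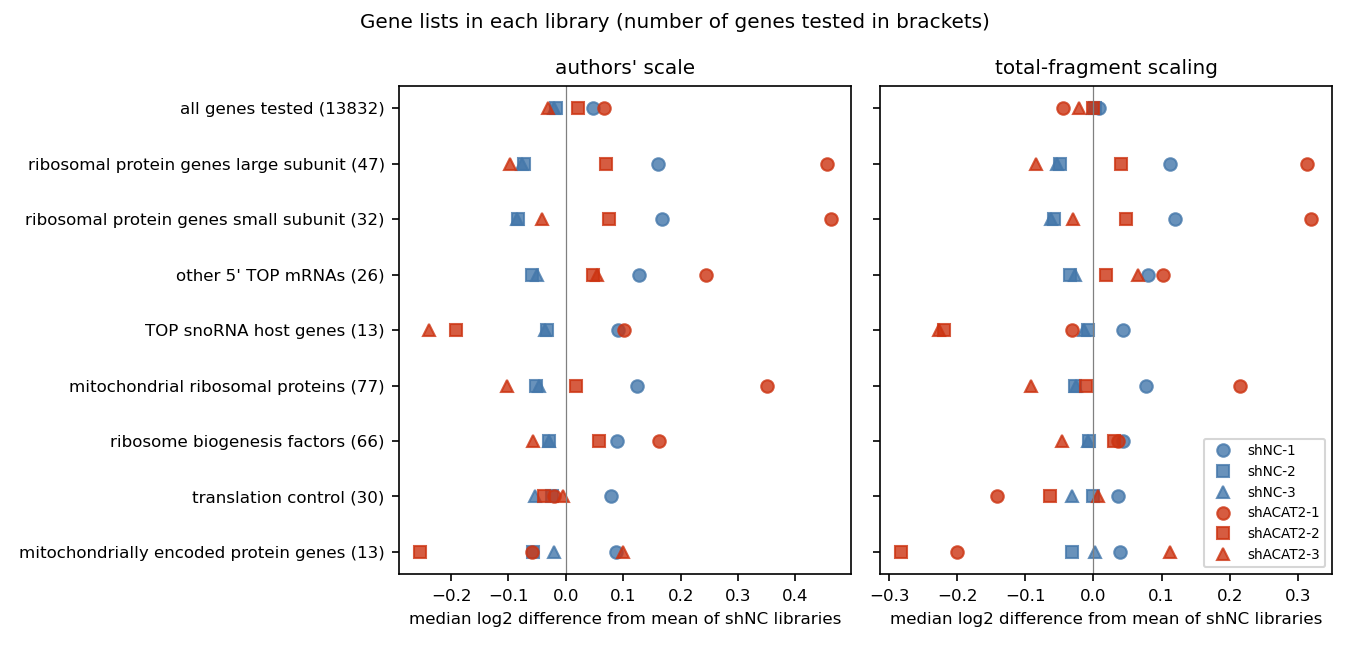
Median log2 difference from the shNC mean for the gene lists named on the axis in each library, on the authors' scale (left) and the total-fragment scale (right), with shNC in blue, shACAT2 in red and circles, squares and triangles for libraries 1, 2 and 3. Among the lists drawn, the ribosomal protein genes of both subunits in shACAT2-1 lie furthest to the right, and shNC-1 lies to the right of the other shNC libraries in most lists. The 6 ribosomal protein genes outside the naming rule are not drawn, and their median in shACAT2-1 was 0.55 on the authors' scale.

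The genes outside the group whose level followed its mean most closely over the 6 libraries were GPX4, LAMTOR1, DGUOK, USP5 and NRSN2, with Pearson's r of 0.997 to 0.998. GPX4 was at 136, 110 and 112 FPKM in shNC and at 186, 130 and 107 FPKM in shACAT2, highest in shACAT2-1 and lowest in shACAT2-3 like the share of fragments on the ribosomal protein genes. None of the 5 passed the test (limma adjusted p of 0.602 to 0.696).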

How the data were processed

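RNA-seq libraries of HGC-27 cells were compared, 3 of shACAT2 and 3 of shNC. The authors deposited FPKM values for 58735 genes, that is fragments scaled to gene length and sequencing depth. The submitters' processing notes name HISAT2 2.0.5, featureCounts 1.5.0-p3, DESeq2 1.20.0 and hg38, with no settings for strand or for reads that fit several places. All 58735 gene lengths equal the exon unions of GENCODE release 29. Fragments were recovered from FPKM and gene length, and 100% were whole within 0.05. The authors' denominator was 0.957 to 1.07 times the fragments on genes, so scaling to that total was the second scale. The number of sample columns left unused was 0.

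Genes entered the test where the mean of shNC or of shACAT2 reached 1 FPKM. Log2(FPKM + 1) values were fitted with limma 3.58.1 in R 4.3.3 with its trend option and Benjamini-Hochberg adjustment over all 13832 genes. A fold change on this scale understates the change of low genes. Other steps used Python 3.11.15, numpy 2.4.6, pandas 2.3.3 and scipy 1.17.1. On simulated data for this comparison, where a log2 change of 1.5 was given to 200 of 13832 genes, limma recovered 99.5% and called 15 unchanged genes. That change is larger than any member's estimate, and the simulated libraries had no drift shared between genes. The simulation thus cannot show how well changes of the members' size would be found. GC content was the length-weighted mean over a gene's annotated transcripts, known for 13823 of the genes tested. Start sites were those of RefSeq (GRCh38.p14), matched by symbol for 65 of the 82 genes.

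The members, the lists and the alternatives were chosen with earlier results of these data known. The genes named were the 10 most abundant, the 3 with the largest change, copies and their partners, the stalk genes, 6 genes of known role, the ribosomal protein genes outside the naming rule, the called genes of each list and the 5 genes most like the members' mean. Other genes were named after their values were seen. A few genes are counted in the totals but not reported here by name.

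The deviations of same-numbered libraries from the mean of their group had correlations of 0.445, 0.126 and 0.171 for numbers 1 to 3. Each of these, over all genes tested, exceeds 0.1, and the numbers were taken to pair the libraries. The fit reported first has no block, and the values with the block stand beside it where they differ. The pairing is not sharp, since shNC-2 with shACAT2-3 and shNC-3 with shACAT2-2 gave 0.198 and 0.141. Over the members alone the numbers 1 to 3 gave 0.20, 0.34 and −0.15, and shNC-3 with shACAT2-2 gave 0.41. The members' own values thus do not bear out the pairing for number 3, and for them shACAT2-2 was closer to shNC-3 than to shNC-2. A chi-square test of counts gave 1.73 per gene between shNC-2 and shNC-3 and 12.1 to 46.0 between the other libraries of 1 group. Since 1.73 exceeds sampling noise both were kept, and their average was an alternative. An excess over sampling noise does not show that shNC-2 and shNC-3 were separate cultures. The p-values measure the spread between these libraries, which may be technical. The alternatives also covered other scalings, filters and pseudocounts, the replicate block, limma-voom on the recovered fragments, pseudogene fragments, each library left out, and, chosen after seeing the data, an adjustment for GC content and each library left out under total-fragment scaling.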

Additional observations from a re-analysis of the deposited data

How the results depend on the processing

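The count of ribosomal protein genes called lower was 0 under every alternative run. The count called higher was 1 with the replicate block and total-fragment scaling, 2 with the GC adjustment and 8 with the GC adjustment and the replicate block, and 0 under all other alternatives. The replicate block alone changed no call of a ribosomal protein gene. Over all genes, the 706 calls became 209 without a filter, 1727 with the replicate block, 1874 with the block and total-fragment scaling, 1165 by limma-voom, 84 when shNC-2 and shNC-3 counted as 1 library, 2368 with the GC adjustment and 2920 with the GC adjustment and the block. Leaving out 1 library gave 59 (without shNC-3) to 849 (without shACAT2-1) calls, and under total-fragment scaling 84 to 990, with 162, 112 and 185 without shNC-1, shNC-2 and shACAT2-2. The members' median ran from −0.011 to 0.26 when 1 library was left out, and was −0.019 without shACAT2-1 under total-fragment scaling. The difference of the shares of fragments ran from −0.151 to 0.933 percentage points, negative without shACAT2-1. The 18 alternatives counted next do not include leaving out a library under total-fragment scaling. Of the 27 members named by rule and tested, 14 kept their sign in all 18 and 3 passed the test in at least 1, RPL7A, RPL12 and RPL21.

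The others had estimates near 0 that changed sign. RPL8 was at −0.029 under total-fragment scaling with or without the block, −0.036 under upper-quartile scaling, −0.028 by limma-voom and −0.021 with those libraries averaged. RPS4X was at −0.0063 under total-fragment scaling with or without the block, −0.013 under upper-quartile scaling and −0.0061 by limma-voom. RPL36A was at −0.027, −0.031 and −0.035 in the same order, and at −0.015 with the GC adjustment with or without the block. On leaving out 1 library the ranges were −0.21 to 0.43 for RPS2, −0.21 to 0.11 for RPL41, −0.092 to 0.23 for RPL19, −0.28 to 0.18 for RPL13A, −0.24 to 0.31 for RPL8, −0.19 to 0.15 for RPL36AL, −0.085 to 0.13 for RPS4X, −0.18 to 0.11 for RPL3, −0.055 to 0.18 for RPL10, −0.035 to 0.067 for RPL36A, −0.15 to 0.44 for RPLP2, −0.12 to 0.32 for RPL11 and −0.041 to 0.24 for RPS14. The call of RPL26L1 was also lost when shNC-2 and shNC-3 were averaged (limma adjusted p = 0.0941). The cause was not tested. With 3 libraries per group the median 95% interval of a member reached 0.391 to either side of its estimate.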
